A study of Mus musculus with 56 samples.

Results

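*Spp1*, the gene of osteopontin, was followed through 56 single cells of a primary mouse pituitary culture. It is 1 of 47069 genes in the count table and was chosen by its values in these same cells, so its levels are given as a description, with no test. The pituitaries came from randomly cycling C57BL/6 female mice aged 10 to 12 weeks, with 5 glands pooled into a sample. The dissociated cells were grown untreated for 4 days, trypsinized, and kept in RNA-Best, which holds intact cells and their RNA stable until the assay. They were then filtered and separated on a small-cell Fluidigm C1 circuit with 1 chamber per cell, and cDNA was made with SMART-Seq v4. All cells share this treatment, the animals cannot be told apart, and the 56 cells form 1 sample. Each cell is named by its plate well.

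Osteopontin is a secreted, acidic phosphoprotein that binds integrins and CD44 on cell surfaces. It is best known from bone, kidney, activated macrophages and injured tissue, where it takes part in mineralization, cell adhesion and inflammation. It belongs to a family of neighbouring genes named SIBLING, for small integrin-binding ligand N-linked glycoproteins, which also holds *Ibsp*, *Dmp1*, *Mepe* and *Dspp*. The anterior pituitary holds lactotropes (*Prl*), somatotropes (*Gh*), corticotropes (*Pomc*), thyrotropes (*Tshb* with *Cga*) and gonadotropes (*Lhb* and *Fshb* with *Cga*).

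*Spp1* (ENSMUSG00000029304.14, protein coding) lies on the plus strand of chr5:104435118-104441050 in GRCm38, the assembly also called mm10, with 1648 exonic bases in GENCODE M21. The 250 bases before the start of transcription are shown here because the gene spans such a wide range between cells of one culture. They come from the RefSeq promoter table (GRCm38.p6, chr5:104434861-104435110, plus strand), and the table holds 2 *Spp1* windows, of which the upstream one was used. Capitals mark, from left to right, a TATAAA match, both Runx matches (TGNGGT, here on the opposite strand) and a CCAAT match (also on the opposite strand).
Spp1: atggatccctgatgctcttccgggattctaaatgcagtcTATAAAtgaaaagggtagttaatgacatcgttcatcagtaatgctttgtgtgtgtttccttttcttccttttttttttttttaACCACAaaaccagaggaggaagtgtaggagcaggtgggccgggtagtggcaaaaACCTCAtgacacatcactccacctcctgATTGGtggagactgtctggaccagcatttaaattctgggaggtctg

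Letters were searched on both strands. The TATAAA match began 211 bases before the start and is held by 12.4% of the 32851 windows of this length in the table, the Runx matches lay at 128 and 74 bases and such letters are held by 40.1%, and the CCAAT match at 46 bases is of a kind held by 33.8%. An E box (CANNTG, held by 66.2% of windows) and 4 Ets cores (GGAA, 93.4%) were also found, while no AP-1 (TGANTCA, 6.75%) and no SF-1 motif (AAGGTCA, 4.08%) was in this window. These are matches of letters and not sites shown to be bound.

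Counts of *Spp1* were whole in every cell, so no read had been shared with another feature. A gene of unknown status, *Gm42793*, overlaps it on the same strand and had 12 counts in 4 cells. Of the neighbouring genes, *Ibsp* and *Mepe* had no count in any cell, and *Pkd2* had counts in 34 cells.

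The depth of the cells differed widely. Gene counts ranged from 357 to 12563266 per cell (median 711525), and 10 cells had under 100000. The other 46 are called deep cells. ERCC spike-ins, synthetic RNAs added to each chamber, took 0.144% to 74.9% of all counts. The cells C10 and C11 stood apart from all other pairs. Over genes at a mean of at least 100 CPM in the pair, the median absolute log2 ratio between them was 0.19. It was 0.48 for the next pair, C11 and F12, and 0.59 for C10 and F12. The median of 1035 pairs of deep cells was 3.03. C10 and C11 were thus more alike than any other pair, and whether they share a cell was not tested. *Spp1* was at 259 CPM in C10 and 313 CPM in C11, with 95% Poisson intervals of 214 to 310 and 264 to 369. Detection, the share at 1000 CPM or more, the median, correlations over all deep cells and the main marker count were also made without C11. The spread, the comparisons by share of spike-ins and the differences between groups of cells were not. Intervals on counts and on shares of cells are exact, at 95%, and cover counting error only, since reads without molecular identifiers are not independent molecules.

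*Spp1* was found at 1 CPM (counts per 1000000 gene counts, without spike-ins) or more in 55 of 56 cells (98.2%, interval 90.4% to 99.95%). The remaining cell, B6, had 357 gene counts, where a floor of 3 counts, used in place of an interval, allows a level of up to 8408 CPM. The median was 308 CPM, with quartiles of 116 and 1260 CPM, and the mean of 3263 CPM was over 10 times the median (SD 9960, 56 cells). Without C11 the median was 302 CPM. A few cells therefore held most of it: F4 held 37.1% of the *Spp1* CPM summed over all cells, the 4 highest cells 69.4% and the 10 highest 87.8%.

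The highest cell, F4, stood at 67753 CPM from 144540 counts, so that 6.78% of all its gene counts were *Spp1*. F11 followed at 25853, D10 at 18393 and H2 at 14867 CPM. These 4 cells did not overlap each other in their counting intervals, and each rested on at least 55748 counts of *Spp1*. G7 was at 8642, D3 at 6751, E3 at 5106, H12 at 5066, G2 at 5009, H7 at 2932 and F12 at 2785 CPM. Of these, E3, H12 and G2 cannot be put in order, nor can H7 and F12, since their intervals overlap.

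In all, 19 cells (33.9%, interval 21.8% to 47.8%) were at 1000 CPM or more, and they are called *Spp1*-high. Without C11 the share was 34.5%. The limit falls in a run of close values, with H6 at 1051 CPM just inside it, H5 at 750 and D5 at 778 CPM just outside. Of the 19, 4 were shallow: D11 reached 2485 CPM on 26 counts (interval 1623 to 3641), H10 1186 CPM on 2 counts (144 to 4283), D12 1174 CPM on 113 counts and E6 1142 CPM on 73 counts. Among deep cells 15 of 46 (32.6%) were *Spp1*-high, and 15 of 46 were also at this level after each cell had been thinned to 100000 counts. The plate was split by columns as a technical check. Of 29 cells in columns 1 to 3 and 7 to 9, 31.0% were *Spp1*-high, with a median of 302 CPM. Of 27 cells in columns 4 to 6 and 10 to 12 the share was 37.0%, with a median of 313 CPM. The sets also differ in depth, since all 29 cells of the first were deep but only 17 of the second. Those 17 had a median of 264 CPM, and the 4 shallow *Spp1*-high cells were all in the second set. In the order of all 56 cells, 44 of 55 neighbouring pairs had overlapping intervals.

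**Figure D1:**
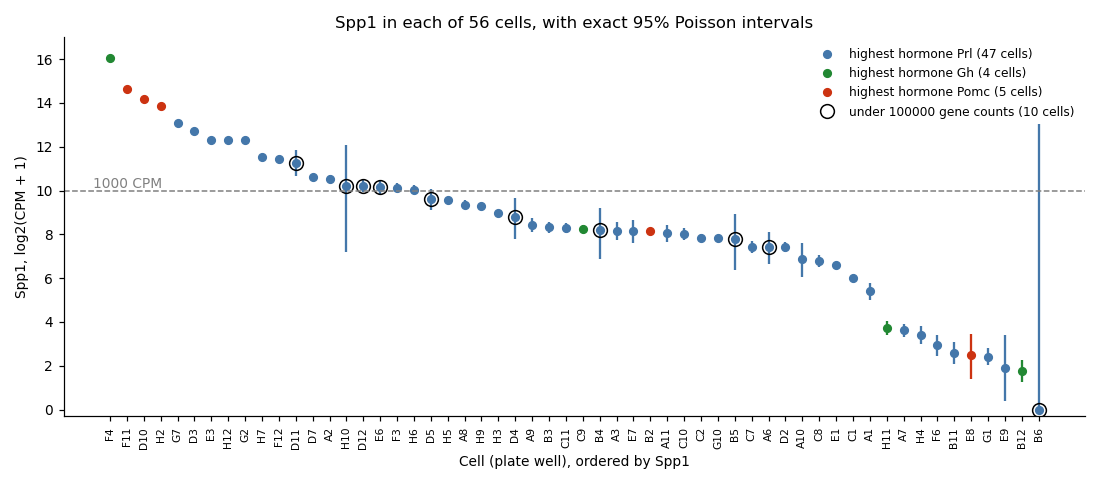
*Spp1* level, as log2(CPM + 1), in each of the 56 cells ordered from high to low, with exact 95% Poisson intervals (for B6, at 0, a line up to the floor of 3 counts); colours give the hormone gene with most counts in the cell, and rings mark the 10 cells with under 100000 gene counts. The 19 cells above the dashed line at 1000 CPM run from 1051 to 67753 CPM, and at the right edge a separate run of cells lies at 12.2 CPM or less.

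At the other end, 9 deep cells were under 20 CPM, and none lay between A1, at 41.2 CPM, and H11, at 12.2 CPM. A7 was at 11.2, H4 at 9.67, F6 at 6.72, B11 at 5.08, E8 at 4.57, G1 at 4.32, E9 at 2.69 and B12 at 2.41 CPM. The depth behind these values differed. B12 had 7043039 gene counts, of which 17 were *Spp1* (interval 1.41 to 3.86 CPM), and G1 had 8573641, of which 37 were *Spp1*, whereas E8 and E9 rested on 6 and 2 counts, with intervals of 1.68 to 9.94 and 0.325 to 9.70 CPM. The highest deep cell was thus 28070 times the lowest. Of 54 protein coding genes at a mean of at least 1000 CPM and found in every deep cell, *Spp1* had the highest SD of log2(CPM + 1), 3.65, where the median was 1.78. Over all 64 such genes, found in every deep cell or not, it had rank 6. Among the 54, next in order were *Pomc* with 3.47 and *Crhbp*, which codes for a binding protein of corticotropin-releasing hormone, with 3.06.

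Per exonic base, *Spp1* was the most abundant transcript of F4. It had rank 3 in D10 and H12, rank 4 in H2 and G7 and rank 6 in F11. In these 6 cells it was thus among the 10 most abundant transcripts, and in 18 of the 56 cells it was among the first 100.

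The range of *Spp1* differed with the share of spike-in counts, by limits chosen after the values had been seen. In the 20 deep cells with under 1% of counts from ERCC, 7 were at 1000 CPM or more, 7 were under 20 CPM and the whole range was 2.41 to 67753 CPM (SD of log2 4.88). In the 18 deep cells with 10% or more, 7 were also at 1000 CPM or more, but none was under 20 CPM, and the range was 41.2 to 6751 CPM (SD of log2 1.97). The median was 168 CPM in the former and 579 CPM in the latter, with median gene counts of 4630412 and 248136.

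Of the 54 genes found in all deep cells and at a mean of at least 1000 CPM, 18 had a smaller spread at 10% ERCC or more. The SD at 10% ERCC or more, divided by that under 10%, was 0.455 for *Spp1*, with rank 4 from the lowest of 54 genes, and the median of the 54 was 1.20. *Crhbp* went with it (SD 3.77 under 10% and 1.14 at 10% or more), as did *Prl* (3.11 and 0.785) and *Pomc* (4.21 and 1.64). *Eef1a1*, a translation elongation factor, went the other way (1.04 and 1.73). A high share of spike-ins means little RNA from the cell relative to what was added, and the part this plays in the middle values of *Spp1* was not tested.

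**Figure D2:**
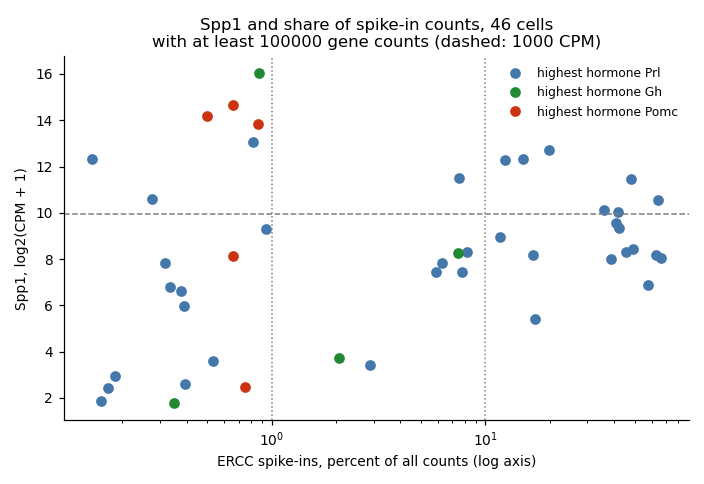
*Spp1*, as log2(CPM + 1), against the share of counts from ERCC spike-ins (log axis) in the 46 deep cells, coloured by leading hormone gene; dotted lines stand at 1% and 10% and the dashed line at 1000 CPM. Cells under 1% spread from 2.41 to 67753 CPM, whereas the 18 cells at 10% or more stay between 41.2 and 6751 CPM.

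*Spp1* had little relation to *Prl* or *Gh* and a weak one to *Pomc*. *Prl* had most counts of the hormone genes in 47 cells, *Pomc* in 5 and *Gh* in 4, by share of counts and not per length. Of the cells led by *Prl*, 15 of 47 were *Spp1*-high (31.9%, interval 19.1% to 47.1%) and their median was 313 CPM. Of the 5 cells led by *Pomc*, F11, D10 and H2 were among the 4 highest of all, whereas B2 was at 283 CPM and E8 at 4.57 CPM, although *Pomc* itself was higher in these, at 298862 and 356901 CPM, than the 180795 CPM of F11. Of the 4 cells led by *Gh*, F4 was the highest of all, C9 was at 302 CPM, H11 at 12.2 CPM and B12 at 2.41 CPM.

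Cells poor in *Prl* thus lay at both ends. In the 8 cells with under 20000 CPM of *Prl*, a limit set after seeing the values, *Spp1* was at 67753 CPM in F4, 25853 in F11 and 18393 in D10, at 283 in B2, and at 12.2 CPM or less in H11, H4, E8 and B12. None of the 8 lay between 283 and 18393 CPM. In the other 48 cells the median was 316 CPM and the highest value 14867 CPM.

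Over the 46 deep cells the Spearman correlation of *Spp1* with *Prl* was 0.02 and with *Gh* 0.04, and with *Pomc* it was 0.30. All points come from 1 culture and 1 circuit and share the depth of their cell. Between both sets of plate columns the *Pomc* value was 0.18 (29 cells) and 0.49 (17 cells), and without F4 it was 0.38. Within the 37 deep cells led by *Prl* it was 0.31, with 0.15 for *Prl* and 0.20 for *Gh*. The mean log2(CPM + 1) of *Pomc* was 13.13 (SD 2.93) in the 15 *Spp1*-high deep cells and 11.44 (SD 3.63) in the 31 others, and these ranges overlap widely.

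**Figure D3:**
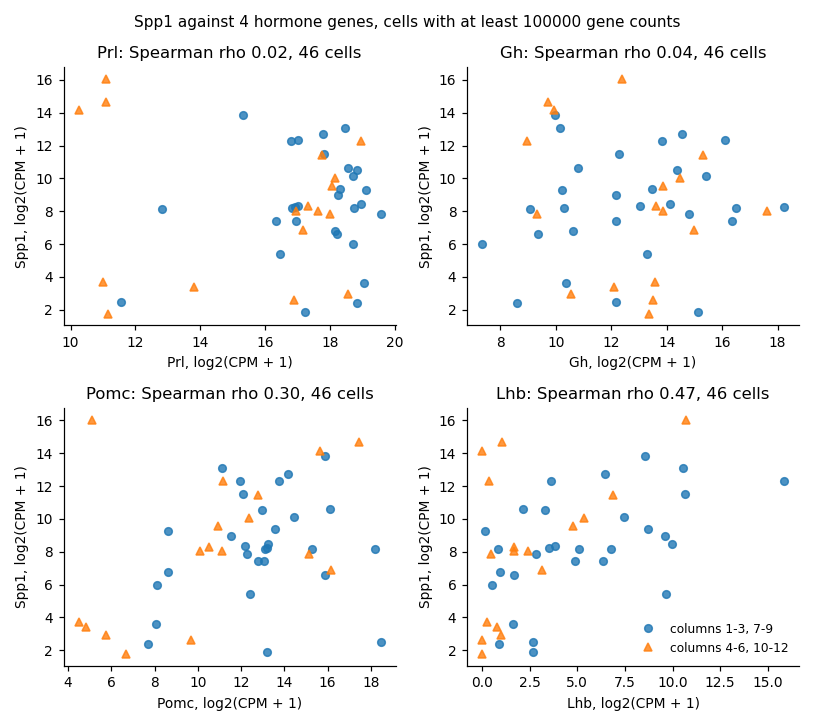
*Spp1* against *Prl*, *Gh*, *Pomc* and *Lhb* in the 46 deep cells, all as log2(CPM + 1), with circles for plate columns 1 to 3 and 7 to 9 and triangles for columns 4 to 6 and 10 to 12. The cells low in *Prl* sit at the top and the bottom of the *Spp1* axis, with a rho of 0.02, and the panel of *Lhb* has the highest rho of the 4, at 0.47.

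The highest levels of gonadotrope genes were in *Spp1*-high cells. *Lhb*, the beta subunit of luteinizing hormone, reached 59401 CPM in E3, 1643 in F4, 1584 in H7 and 1490 in G7. All 4 cells were *Spp1*-high (interval 39.8% to 100%), at 5106, 67753, 2932 and 8642 CPM. Of the 52 other cells, 15 were (28.8%, interval 17.1% to 43.1%). The intervals overlap, and over cells of 1 culture they are no test of a difference. The next in line were A9 with 988, A1 with 805 and H3 with 783 CPM of *Lhb*. Their *Spp1* was at 348, 41.2 and 502 CPM, so the contrast rests on a limit of 1000 CPM that was chosen with the values in view.

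*Gnrhr*, the receptor for gonadotropin-releasing hormone, was at 3060 CPM in E3, 154 in H2 and 63.8 in F4, and at 0.223 CPM or less in all 53 other cells. Those 3 cells held 5106, 14867 and 67753 CPM of *Spp1*. *Fshb* was at 2464 CPM in E3 and otherwise in B3 alone, at 2.23 CPM. Only E3 thus carried *Lhb*, *Fshb*, *Cga* (57530 CPM) and *Gnrhr* together, and E3 still had *Prl* at 131748 CPM. In F4 *Cga* was at 0.469 CPM. The gonadotrope factor *Nr5a1* was highest in F4, at 30.0 CPM, and at 1.54 CPM in E3.

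*Lhb* had a rho of 0.47 with *Spp1* over the deep cells (0.55 and 0.47 in both sets of plate columns), with a median of 88.0 CPM in the *Spp1*-high cells and 4.26 CPM in the others. For *Cga*, the alpha subunit shared by glycoprotein hormones, rho was 0.31, but 0.66 in one set of columns and -0.14 in the other. Cells at 1000 CPM of *Cga* or more were *Spp1*-high in 8 of 18 cases (44.4%, interval 21.5% to 69.2%). Among the others it was 11 of 38 (28.9%, interval 15.4% to 45.9%). These intervals overlap, and here too they are no test of a difference. *Tshb* stayed under 50 CPM everywhere, with its highest value, 49.8 CPM, in H2.

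**Figure D4:**
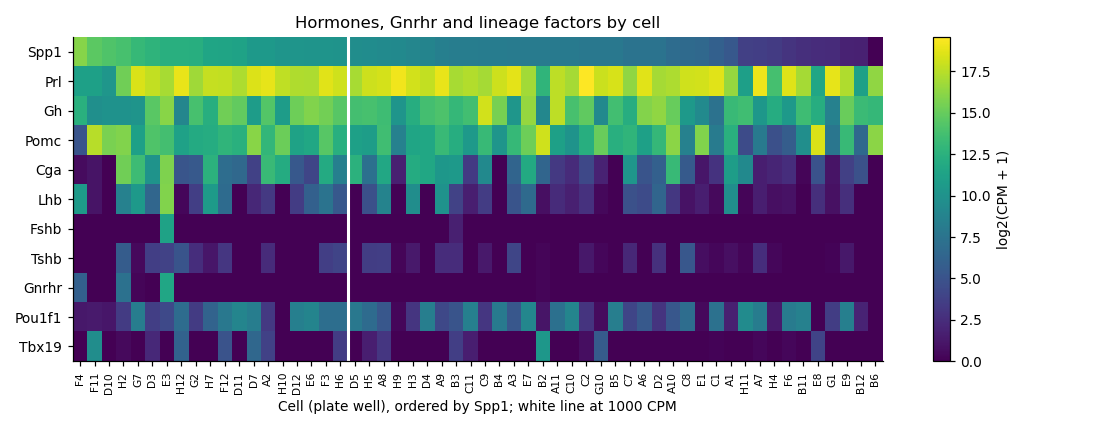
Levels of *Spp1*, 7 hormone genes, *Gnrhr* and the lineage factors *Pou1f1* and *Tbx19*, as log2(CPM + 1), in the 56 cells ordered by *Spp1*; the white line stands at 1000 CPM of *Spp1*. *Prl* is bright on both sides of the line, *Gnrhr* is seen in E3, H2 and F4, and cells with dark *Prl* columns lie at both ends.

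Among 16 lineage factors and receptors, 10 had a higher mean log2(CPM + 1) in the *Spp1*-high deep cells and 5 a lower one, from -0.95 for *Esr1* to 2.22 for *Neurod1*, with 1.67 for *Gnrhr* and 1.47 for *Tbx19* (median of the list 0.17). Of the 7060 protein coding genes at a mean of at least 10 CPM, 4777 were higher, with a median of 0.31, so the list did not stand out. *Pou1f1*, the factor of lactotropes, somatotropes and thyrotropes, had a median of 18.5 CPM in the *Spp1*-high deep cells and 33.5 CPM in the others, with a rho of -0.08. It was at 9.63 CPM or less in the 4 highest cells, F4, F11, D10 and H2, whereas it was at 309 CPM in G7. *Tbx19*, the corticotrope factor, was at 777 CPM in F11 and 1289 CPM in B2, and at 0 in D10. *Neurod1*, a factor active in developing corticotropes, had a rho of 0.497 (0.35 and 0.66 in both sets of columns). Within the deep cells led by *Prl* this was 0.29. Its mean of 9.48 CPM left it outside the genes ranked by rho, which needed 10 CPM. The level was 189 CPM in F4, 77.1 in F11, 34.6 in D10 and 21.3 in H2, in the order of their *Spp1*. E1, at 96.8 CPM of *Spp1*, held 46.7 CPM of *Neurod1*, more than D10 and H2. *Neurod1* was found in 10 of the 15 *Spp1*-high deep cells and 5 of the 31 others.

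Genes of secretory granules were at similar or higher levels in *Spp1*-high cells. Of 9, 8 had a higher mean log2(CPM + 1) there and 1, *Chgb*, a lower one, with a median difference of 1.05. Over the 7060 protein coding genes with a mean of at least 10 CPM in deep cells the median difference was 0.31, with 4777 higher and 2283 lower. *Scg2*, secretogranin II, had a mean of 10.88 (SD 1.65) against 9.20 (SD 1.98), and its values in the *Spp1*-high cells ran up to 12252 CPM in E3 and 10478 CPM in F11. E1 and C1, at 7976 and 6990 CPM, had much *Scg2* with *Spp1* at 96.8 and 62.8 CPM. The rho of *Scg2* was 0.35, or 0.15 and 0.60 within the sets of columns. *Pam*, which amidates peptides, had a rho of -0.16.

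Markers of the cell types best known for osteopontin were mostly low or absent in *Spp1*-high deep cells. Of 6 osteoblast markers, 4 (*Sp7*, *Bglap*, *Bmp2* and *Pth1r*) were at 0 in all 15 *Spp1*-high deep cells, and their summed level there was 0 to 16.3 CPM. Of 12 macrophage markers, 8 were under 100 CPM in all of them, with *Csf1r* at 0. F12, at 2785 CPM of *Spp1*, was the one *Spp1*-high cell with 3 macrophage markers at 100 CPM or more, with *Lyz2* at 293, *Fcer1g* at 147 and *Tyrobp* at 123 CPM. At a marker limit of 10 CPM, 3 of the 15 cells in place of 1 had 3 markers of a stem, endothelial, macrophage, fibroblast, osteoblast, lymphoid or pituicyte list. Red blood cell markers were not part of this count. At 100 CPM, 4 of the 15 cells had 3 or more of those, against 4 of the 31 other deep cells. Of the 12 macrophage markers 11 had a higher mean in the *Spp1*-high cells (4777 of 7060 over all genes). The median difference was 0.36 (0.31 over all genes), and *Fcer1g* and *Lyz2* had a rho of 0.38 each. The summed level of the 12 was 3.52 to 764 CPM in the *Spp1*-high cells (median 53.5) and 0 to 5234 CPM in the others (median 32.0). The highest cell of the others was E7, from *C1qc* at 5108 CPM, and it held 288 CPM of *Spp1*.

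The cells with most endothelial markers had little *Spp1*. H4 had *Plvap* at 4885, *Kdr* at 1681, *Cdh5* at 1267 and *Emcn* at 1013 CPM, and F6 had *Emcn* at 308, *Plvap* at 234 and *Kdr* at 160 CPM. They were the 2 deep cells with 3 or more of the 5 markers, and their *Spp1* was at 9.67 and 6.72 CPM. H7 had *Emcn* alone, at 2040 CPM, with 2932 CPM of *Spp1*. A2, at 1485 CPM of *Spp1*, also had 1 marker at 100 CPM or more, and the 5 summed to 274 CPM in it. By mean log2(CPM + 1), 4 of the 5 were higher in the *Spp1*-high deep cells (4777 of 7060 over all genes). The median difference was 0.67 (0.31 over all genes). The summed level had a median of 13.7 CPM in these cells and 0.360 CPM in the others.

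Of 8 stem and folliculostellate markers, *Sox2*, *S100b* and *Fxyd1* were at 0 in the *Spp1*-high deep cells. A2 stood out by *Cyp2f2* at 26077 CPM, with all others of this list under 100 CPM in it. Of 10 fibroblast and mural markers, *Col1a1*, *Lum*, *Pdgfra* and *Pdgfrb* were at 0 and no cell had 3 at 100 CPM. All 4 lymphoid and neutrophil markers were at 0, and the 4 pituicyte markers summed to at most 5.00 CPM.

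Globin genes, markers of red blood cells, reached the highest level of such lists beside *Spp1*, in the cell F11. F11 held *Hba-a1* at 36905, *Hba-a2* at 32783, *Hbb-bs* at 44535 and *Hbb-bt* at 32327 CPM, and these with *Alas2*, at 198 CPM, summed to 146749 CPM. In all other deep cells the sum was lower. The next *Spp1*-high cell was F12, at 5529 CPM. Among the 31 cells that were not *Spp1*-high the sum ran from 0 to 12455 CPM, in A11, so without F11 the highest value was in a cell that was not *Spp1*-high. *Hba-a1* was found in all 15 *Spp1*-high deep cells and in 21 of the 31 others. The median of the summed list was 130 CPM in the *Spp1*-high cells and 42.2 CPM in the others. Their part in the level of *Spp1* was not tested.

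The other members of the SIBLING family were silent. *Ibsp*, *Mepe* and *Dspp* had no count in any deep cell, and *Dmp1* was found at 1.10 CPM in D2 alone. The genes of the surface partners of osteopontin showed no shared pattern with it. *Itgb1*, the integrin beta 1 subunit, had a median of 80.0 CPM in the *Spp1*-high deep cells and 73.0 CPM in the others, with a rho of -0.01. *Cd44* was at 100 CPM or more in 4 cells, C8 (1063 CPM), D10 (284 CPM), A7 (238 CPM) and G1 (131 CPM), of which only D10 was *Spp1*-high, and A7 and G1 had some of the lowest levels of *Spp1*. *Itgb5* was at 6463 CPM in A1 and *Itgb6* at 1162 CPM in B3, neither of them *Spp1*-high. *Itgb6* had a rho of 0.39 (0.35 and 0.41 in both sets of columns), but it was found in 3 deep cells only. The median difference of the 10 receptor genes was 0.03.

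Of 8 genes whose products modify or cleave osteopontin, *Fam20c*, a kinase of secreted proteins, was at 257 CPM in H2 and at 28.4 CPM or less in every other *Spp1*-high deep cell. The other 7, among them *Tgm2*, *Mmp9* and *Phex*, were under 100 CPM in all of them. Matrix and matricellular genes were split, with 6 of 12 higher and 6 lower and a median difference of 0.20. Over all genes 4777 of 7060 were higher, with a median of 0.31. *Tnc*, tenascin C, was at 319 CPM in H7, 154 in H2 and 104 in H12, all *Spp1*-high, and at 2.17 CPM or less in the 31 other deep cells. *Timp1*, an inhibitor of metalloproteinases, reached 6708 CPM in D10, 2322 in E3 and 1679 in F11, but 0 in D7. *Fn1*, *Postn* and *Thbs1* were highest in B3, at 230, 125 and 1162 CPM, where *Spp1* was at 319 CPM. Of 5 epithelial keratin and adhesion genes, 4 had higher means in the *Spp1*-high cells, with a median difference of 0.91 (0.31 over all genes). *Krt18* had medians of 207 and 105 CPM, and *Krt19* was at 0 in all deep cells. The differences of the 5 house-keeping genes ran from -0.25 for *Actb* to 0.41 for *Eef1a1*.

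Few genes followed *Spp1* from cell to cell. Over the 46 deep cells, 7 of 7060 genes (0.0992%) had a Spearman rho of 0.5 or more, and none had -0.5 or less. Of the 7060, 4410 were at 1 CPM or more in at least 50% of the cells. The middle of all genes lay at 0.01, with 90% of them between -0.23 and 0.27. The 7 were *Hba-a2* (0.63), *Plin2* (0.61), *Hba-a1* (0.61), *Sms* (0.60), *Lap3* (0.54), *Tmem9* (0.52) and *Pacs1* (0.52). *Sms* and *Tmem9* were found in under 50% of the cells and are named because they pass this limit. After thinning each cell to 100000 counts, 2 genes reached 0.5, and *Plin2* (0.51) was the one of the 7 among them. *Spp1* itself had a rho of -0.20 with gene counts, 0.30 with the share of ERCC counts and 0.06 with the number of genes in the cell.

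*Plin2* codes for the coat protein of lipid droplets, *Lap3* for a leucine aminopeptidase, *Sms* for spermine synthase and *Pacs1* for a sorting protein of the trans-Golgi network. *Plin2* was found in all 15 *Spp1*-high deep cells and in 16 of the 31 others, with medians of 30.5 and 2.00 CPM. Its highest level was 7199 CPM in G2, yet it was at 1.88 CPM in F4, the cell with most *Spp1*, and at 1933 CPM in C8, with 109 CPM of *Spp1*. *Lap3* was also found in all 15 and in 20 of 31, with medians of 71.9 and 4.26 CPM, and reached 537 CPM in D10 and 276 CPM in F4. The paired alpha globins share reads, with fractional counts in 39 and 42 cells, and count as 1 signal. Without F11 their rho was 0.61 and 0.58. *Sms* also had fractional counts, in 26 cells, and *Plin2* in 12, so some of their reads were shared with other features. *Lap3*, *Tmem9* and *Pacs1* had none.

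The next in order were *Cyhr1* (0.496), *Arl6ip4* (0.47), *Lhb* (0.47), *Ivns1abp* (0.47), *Ifi27l2a* (0.47), *Dip2b* (0.47) and *Alg3* (0.46). All 12 highest genes by the rule for named genes had a rho of at least 0.3 in both sets of plate columns, and between 0.37 and 0.54 after thinning. *Brd2*, a chromatin reader of acetylated histones, had the lowest rho of the named genes at -0.49, and *Uhrf1bp1l* (-0.47), *Dctn6* (-0.42), *Get4* (-0.42), *Zscan26* (-0.40), *Rab3d* (-0.39), *D8Ertd738e* (-0.39) and *Abhd4* (-0.39) followed. All 8 were negative in both sets of columns. The sets are parts of the cells on which the genes were chosen, so this is no independent check. They came from many processes, and no list was tested for them.

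**Figure D5:**
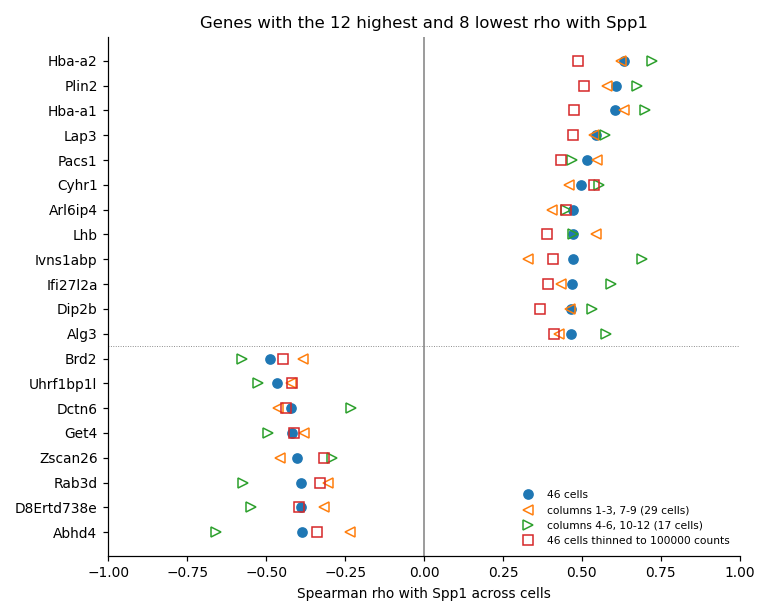
Spearman rho with *Spp1* across deep cells for the 12 genes with the highest and the 8 with the lowest values, over all 46 cells (filled circles), within each set of plate columns (triangles) and after thinning to 100000 counts per cell (squares). All sets draw on the cells by which the 20 genes were chosen, and the circles run from 0.63 for *Hba-a2* down to -0.49 for *Brd2*.

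The 15 *Spp1*-high deep cells were also set beside the 31 others, groups that *Spp1* itself defined. A mean difference of 2 or more in log2(CPM + 1) was found for 82 of 7060 genes (1.16%), and of -2 or less for 2 genes (0.0283%), *Brd2* and *Eif4enif1*. Among genes found in at least 50% of the deep cells the largest were *Cyhr1* (3.56), *AW551984* (3.22), *Ifi27l2a* (3.18), *Plin2* (3.06), *Lap3* (3.02), *Lhb* (3.00), *Rab3b* (2.78), *Polr1c* (2.78), *Surf2* (2.75) and *Pafah1b3* (2.74), and *Sms*, found in fewer cells, was at 2.86. *Rab3b*, a small GTPase of regulated secretion, was found in 13 of the 15 cells and 20 of the 31, with medians of 66.4 and 2.95 CPM. Single cells carried much of it, with 3898 CPM in E3. *Ifi27l2a*, an interferon-induced gene, was at 4830 CPM in E3 and at 1.41 CPM in F4, and at 3711 CPM in C7 among the others.

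On the low side *Brd2* had a median of 2.23 CPM in the *Spp1*-high cells, with a highest value of 44.3 CPM in F3, and 31.3 CPM in the others, with 2672 CPM in D2. Its mean log2(CPM + 1) was 1.98 (SD 1.75) and 4.74 (SD 2.94), a difference of -2.75, and *Brd2* was found in 9 of 15 and 28 of 31 cells. *Eif4enif1*, which carries the cap-binding factor eIF4E into the nucleus, was found in 4 of 15 and 20 of 31 cells, with a difference of -2.17. *Fuca1* (-1.81), *Pold2* (-1.77), *Sfswap* (-1.70), *Ccndbp1* (-1.67), *Lpin2* (-1.61), *Get4* (-1.60), *6330403K07Rik* (-1.59) and *Jagn1* (-1.56) followed. The number of genes per cell was 8732 (SD 1970) in the *Spp1*-high cells and 7820 (SD 2154) in the others, and ERCC counts took a median of 7.54% and 5.89%. Median gene counts were 1050009 and 1314330. The part of these differences in the gene lists was not tested.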

How the data were processed

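Full-length cDNA of 56 cells was sequenced from 1 culture sample; the labels name no separate animals, so cells are not replicates and no test was run. The deposited file holds estimated counts of reads for genes and ERCC spike-ins, with no scaling. The submitters' processing notes name STAR 2.5.1b, featureCounts 1.5.0-p1 and mm10; the annotation release and strand setting are not given in the sources used here. Of the values above 0, 33.5% are not whole (tolerance 1e-09), so reads were divided between features.

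Symbols, gene types and coordinates came from GENCODE M21, which matched 46574 of 47069 identifiers. CPM was calculated from gene counts without the 92 spike-ins, and values per length from M21 exon lengths. Counts were rounded before thinning (seed 7). Gene counts per cell, 357 to 12563266, set the precision. Markers were counted at 100 CPM, and doublets were not called.

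*Spp1*, the gene lists and the rules were chosen with earlier results of these data known. Named genes were list members, neighbours of *Spp1*, the 12 highest and 8 lowest rho, and the 10 largest log2(CPM + 1) differences in each direction, among protein coding genes at a mean of 10 CPM and found in 50% of the deep cells. Single cells, *Crhbp*, *Sms* and *Tmem9* were named after their values were seen. Alternatives changed limits, pseudocounts, denominators and cells. The ranking was tested on simulated data. Python 3.11.15, numpy 2.4.6, pandas 2.3.3, scipy 1.17.1 and matplotlib 3.10.9 were used.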

Additional observations from a re-analysis of the deposited data

How the results depend on the processing

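The share of cells with *Spp1* was 100% in cells with at least 100000 or 1000000 gene counts, in plate columns 1 to 3 and 7 to 9, and in cells with under 10% ERCC counts (the latter added after seeing the data). It was 91.3% (42 of 46) in deep cells thinned to 100000 counts, 85.7% at a limit of 10 CPM and 76.8% at 100 CPM. The share of *Spp1*-high cells was 21.4% at a limit of 2000 CPM and otherwise 25.0% to 42.9%, and the median ran from 228 to 531 CPM. The number of genes with a rho of 0.5 or more was 11 with a mean of at least 1 CPM, 3 with 100 CPM, 2 after thinning, 20 in cells with under 10% ERCC counts, 69 in cells with at least 1000000 counts, and 40 and 294 in both sets of plate columns. At -0.5 or less, where the main count is 0, they gave 2, 0, 3, 36, 21, 14 and 132 genes in the same order. The last 4 use fewer cells, 28, 25, 29 and 17, in which rho spreads more widely. At a marker limit of 10 CPM, 20.0% of *Spp1*-high deep cells had 3 markers of a non-hormone cell type list, against 6.67% at 100 CPM. The red blood cell list was left out of both shares. Correlations with *Prl* stayed between -0.14 and 0.15, with *Gh* between -0.21 and 0.20 and with *Pomc* between 0.18 and 0.49. Leaving out C11 moved none of the results remade without it beyond its spread. No paired analysis was possible because the cells form 1 group. With 1 sample, nothing here separates cells of one animal from another.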

Other observations

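The 4 cells with the highest *Spp1* differed in other abundant secretory and stress genes, named here after their values were seen. *Crhbp* was at 11.9 CPM in F11, 18.5 in D10, between these in F4, and at 152 CPM in H2, while its median over all 56 cells was 1432 CPM, yet G7, the next cell in the order of *Spp1*, held 13252 CPM. *Gal*, which codes for the peptide galanin, was at 2699 CPM in F4, 5040 in F11 and 3008 in H2, but at 17.5 CPM in D10. *Pcsk1*, a prohormone convertase, had its highest level of all cells in F4, at 2462 CPM. D10 held the highest levels of *Mt2*, a metallothionein (11062 CPM), and *Hmox1*, heme oxygenase 1 (5024 CPM). *Lcn2*, the iron-carrier binding protein lipocalin 2, was at 5228 CPM in F11, at 0 in F4 and D10, and highest in A9, at 22123 CPM, where *Spp1* was at 348 CPM.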
